A study of Mus musculus with 6 samples.

Results

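The small RNA machinery described here comprises 10 genes, Drosha, Dgcr8, Xpo5, Dicer1, Tarbp2, Ago1, Ago2, Ago3, Tnrc6a and Tnrc6b, chosen by symbol for what their proteins do. Earlier results of these data were known when the genes were chosen. They are 10 of 24376 gene IDs in the tables, each was found under a single Ensembl ID, and all 10 passed the filter on low counts. Their transcripts were measured by RNA sequencing of polyadenylated RNA from C57BL/6 mouse blood progenitors of E14.5 fetal liver, 3 libraries from cells that received an shRNA against Samd14 (shSamd14) and 3 from cells that received a control shRNA (control). Both groups were infected with retrovirus straight after the progenitors were isolated, cultured for 3 days, and sorted for cells without Ter119 and CD71, which mark the surface of maturing red cells, with 200000 cells lysed per library. Both groups therefore carried a virus and a hairpin, and no uninfected cells are part of the comparison. The sources used here give neither the hairpin sequences, nor the target of the control hairpin, nor whether the hairpins enter the pathway before or after the Drosha step.

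A microRNA is cut out of a longer transcript in steps. Drosha, a nuclear ribonuclease III, and its RNA-binding partner Dgcr8 (together the Microprocessor) release a hairpin, Xpo5 carries it out of the nucleus, and Dicer1 with its partner Tarbp2 removes the loop. An Argonaute protein then keeps one strand and is guided by it to messenger RNAs, where proteins of the Tnrc6 (GW182) family recruit the enzymes that shorten and decay the target. Short hairpin RNAs delivered by a virus use the same proteins, entering either before or after the Drosha step. Ago2 is the Argonaute best known for cutting fully paired targets, and in red cell precursors it also cuts the miR-451a hairpin, which bypasses Dicer1.

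Hairpins that these proteins act on are shown to make the substrate visible, read from RefSeq (GRCm38.p6). The first lies within a coding exon of Dgcr8 itself (chr16:18284239-18284317, minus strand, 79 bases), where the Microprocessor is known to cut the messenger RNA of its own subunit. The second is the miR-451a hairpin (chr11:78073170-78073241, plus strand, 72 bases). Capitals mark the mature strands, 5′ to 3′.
Mir1306 hairpin in Dgcr8: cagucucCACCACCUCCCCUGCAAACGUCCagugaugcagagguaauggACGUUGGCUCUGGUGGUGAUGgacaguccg
Mir451a hairpin: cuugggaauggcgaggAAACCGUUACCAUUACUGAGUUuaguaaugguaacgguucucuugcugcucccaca
In the first, 2 mature strands face each other across a loop that Dicer1 removes. In the second, the single mature strand of 22 bases runs into the loop.

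The shSamd14 libraries held 25344092, 23862151 and 26462797 estimated counts, and the control libraries 20584169, 23294223 and 24069711. Samd14, the targeted gene, had a TPM (transcripts per one-millionth of all transcripts) of 20.5, 19.6 and 20.59 in shSamd14 libraries and 42.8, 40.5 and 41.3 in control libraries, so the labels and the target go together in all 6. All 6 progenitor markers examined, Kit, Cd34, Gata2, Myb, Runx1 and Gfi1b, were present, with sums of 561 to 586 TPM in shSamd14 and 529 to 621 TPM in control libraries. Within that overlapping sum, Kit was lower in every shSamd14 library (138 to 148 TPM, against 154 to 215 TPM in control), while Gata2 (44.3 to 46.0 TPM in shSamd14, 33.6 to 41.5 TPM in control) and Gfi1b (139 to 150 TPM in shSamd14, 117.8 to 123.9 TPM in control) were higher in every one. The 8 erythroid markers, led by globin transcripts, summed to 8459 to 10794 TPM in shSamd14 and 4653 to 8234 TPM in control libraries, and the 6 megakaryocyte markers to 329 to 368 TPM and 248 to 265 TPM. Both sums were therefore higher in all shSamd14 libraries, and the part of these markers, Kit, Gata2 and Gfi1b included, in the results below was not tested. The 7 liver and vessel markers summed to 40.1 to 52.1 TPM in shSamd14 and 45.0 to 87.6 TPM in control libraries. Of these, Alb, Afp, Ttr, Col1a1 and Cdh5 averaged under 1 TPM, Apoa1 had 32.6 to 43.2 TPM in shSamd14 and 39.2 to 80.2 TPM in control, and Pecam1 had 6.36 to 8.92 TPM in shSamd14 and 5.46 to 6.58 TPM in control. The 6 myeloid markers (1851 to 3002 TPM in shSamd14, 1736 to 2660 TPM in control) and the 5 mast cell markers (58.5 to 73.3 TPM in shSamd14, 62.0 to 70.4 TPM in control) overlapped between the groups. Tfrc, which encodes CD71, was present as mRNA at 274 to 303 TPM in shSamd14 and 298 to 352 TPM in control libraries. In such mixed samples, fewer cells of a type and less RNA per cell cannot be told apart. Whether replicate libraries derive from different embryos or cultures is not labelled, and every p-value here thus rests on a spread between libraries that may be technical.

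Of the 10 machinery genes, Ago2 rose and Tnrc6b fell in shSamd14, and the other 8 did not pass the test. The test was edgeR's quasi-likelihood test on counts, called at an adjusted p (Benjamini-Hochberg, over 12670 genes) under 0.05. It called 2.58% of all tested genes, 1.32% higher (167) and 1.26% lower (160) in shSamd14; limma on log2(TPM + 1) called 106 higher and 62 lower. The median log2 fold change of the 10 genes was -0.039 and their median absolute log2 fold change 0.048, beside 0.0060 and 0.097 over all tested genes. The 3 shSamd14 libraries lay wholly above the 3 control libraries for Ago2 and Drosha and wholly below them for Tnrc6b, 3 of 10 genes, beside 20.7% of all tested genes. Of the 2 calls, that of Ago2 held under all 14 alternative settings, while that of Tnrc6b was lost in 6 of 14.

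**Figure D1:**
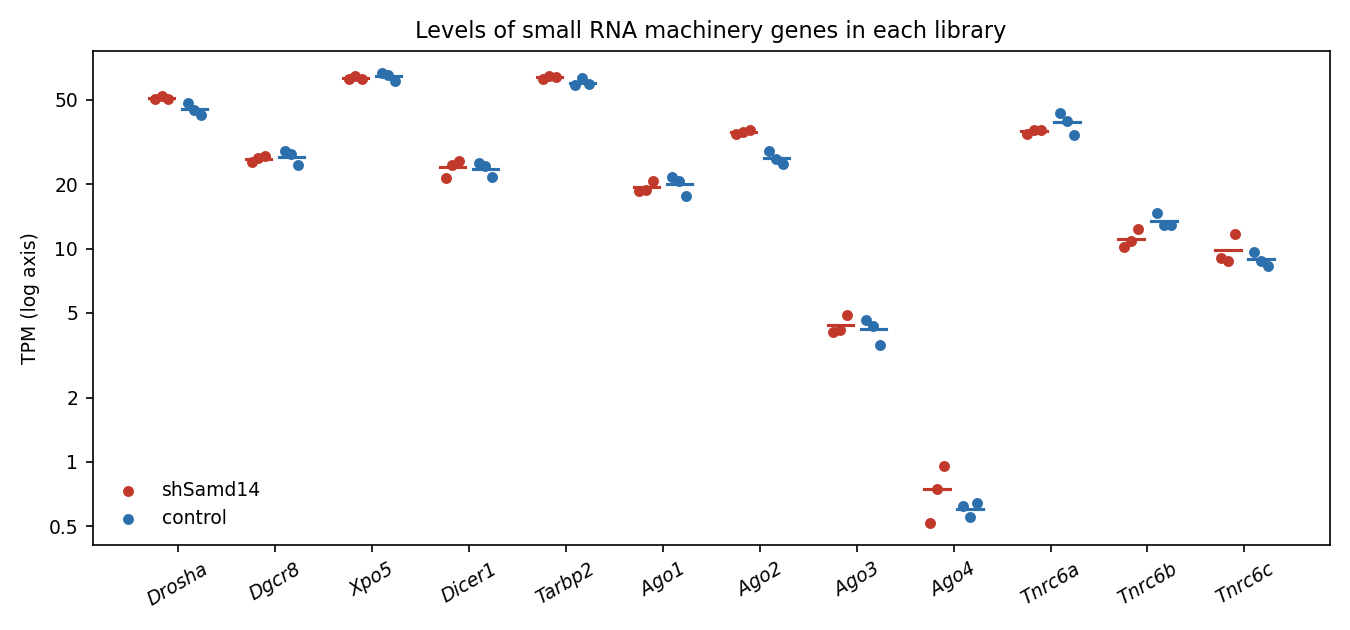
Points are the TPM of each of the 10 machinery genes, and of Ago4 and Tnrc6c of the same families, in the 3 shSamd14 (red) and 3 control (blue) libraries, on a log axis, with a bar at each group mean. Ago2 points lie apart, at 34.4 to 36.1 TPM in shSamd14 and 24.9 to 28.6 TPM in control, while Xpo5, Dicer1 and Ago1 points overlap.

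Levels were compared between genes in TPM, which is scaled for transcript length. Over all 6 libraries the order was Xpo5 (mean 63.7 TPM), Tarbp2 (61.8), Drosha (48.0), Tnrc6a (37.3), Ago2 (30.9), Dgcr8 (26.7), Dicer1 (23.9), Ago1 (19.7), Tnrc6b (12.3), Tnrc6c (9.37), Ago3 (4.28) and Ago4 (0.673). Xpo5 had a higher TPM than 80.7% of tested genes, Dicer1 than 57.8% and Ago3 than 25.5%. Xpo5 and Tarbp2 did not differ beyond their spread, Xpo5 being the higher in 4 of 6 libraries, 1 of 3 shSamd14 and 3 of 3 control. Tnrc6a was above Ago2 in 2 of 3 shSamd14 and 3 of 3 control libraries, with means of 35.5 and 35.2 TPM in shSamd14 and 39.1 and 26.6 TPM in control. Ago2 was above Dgcr8 in 3 of 3 shSamd14 and 2 of 3 control libraries, but in control the order of the means turned, with Dgcr8 at 27.0 TPM and Ago2 at 26.6 TPM. Every other neighbour in this order kept its place in all 6 libraries, although the ranges over libraries overlapped for all of them except Tarbp2 and Drosha, Ago1 and Tnrc6b, Tnrc6c and Ago3, and Ago3 and Ago4.

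The nuclear step came first. Drosha (chromosome 15, 12824815 to 12935291, plus strand, GRCm38) had 50.5, 51.8 and 50.5 TPM in shSamd14 libraries and 48.1, 44.8 and 42.3 TPM in control libraries. All shSamd14 values lay above all control values, by a small margin at the lowest. In TMM-scaled CPM, counts relative to library size, its group means were 126 ± 3.24 in shSamd14 and 113 ± 5.98 in control (SD, n = 3 each), a log2 fold change of 0.16 (SE 0.06, 95% interval 0.028 to 0.29), which did not pass in edgeR (adjusted p = 0.219). Dgcr8 (chromosome 16, 18253948 to 18289246, minus strand) had 25.4, 26.6 and 27.3 TPM in shSamd14 and 28.6, 27.8 and 24.6 TPM in control libraries. The groups overlapped, with means of 68.5 ± 0.547 CPM in shSamd14 and 70.6 ± 4.46 CPM in control, a log2 fold change of -0.042 (SE 0.06, interval -0.18 to 0.096, adjusted p = 0.813 in edgeR). The TPM ratio of Drosha to Dgcr8 was 1.99, 1.95 and 1.85 in shSamd14 libraries and 1.68, 1.61 and 1.72 in control libraries, without overlap. Dgcr8 shares 825 exon bases with Trmt2a on the opposite strand, and since the use of strand is not stated, reads there cannot be assigned with certainty. Trmt2a had means of 121 CPM in shSamd14 and 120 CPM in control (a log2 fold change of 0.019).

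Export and dicing transcripts overlapped between the groups throughout. Xpo5 (chromosome 17, 46202782 to 46243598, plus strand), the carrier of hairpins to the cytoplasm, had 62.2, 64.7 and 62.4 TPM in shSamd14 and 66.5, 64.9 and 61.3 TPM in control libraries. The interval of its log2 fold change, -0.16 to 0.086, was the narrowest of the 10 machinery genes and corresponds to folds of 0.894 to 1.06. Dicer1 (chromosome 12, 104687742 to 104751952, minus strand), the cytoplasmic ribonuclease III, had 21.6, 24.7 and 25.9 TPM in shSamd14 and 25.3, 24.3 and 21.6 TPM in control libraries. Both groups thus spanned almost the same range, and the log2 fold change was 0.0048 (SE 0.07, interval -0.14 to 0.15), with CPM means of 143 ± 9.33 and 143 ± 9.04. Its sign turned when shSamd14 replicate 2, shSamd14 replicate 3 or control replicate 3 was left out. Tarbp2 (chromosome 15, 102518192 to 102523676, plus strand), which encodes the Dicer1 partner TRBP, had 62.7, 64.2 and 63.8 TPM in shSamd14 and 58.4, 63.0 and 59.0 TPM in control libraries, 50.4 ± 1.25 and 48.8 ± 4.22 CPM. Its log2 fold change of 0.046 (interval -0.11 to 0.20) turned to -0.025 without control replicate 1. In edgeR the adjusted p was 0.816 for Xpo5, 0.982 for Dicer1 and 0.820 for Tarbp2.

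**Figure D2:**
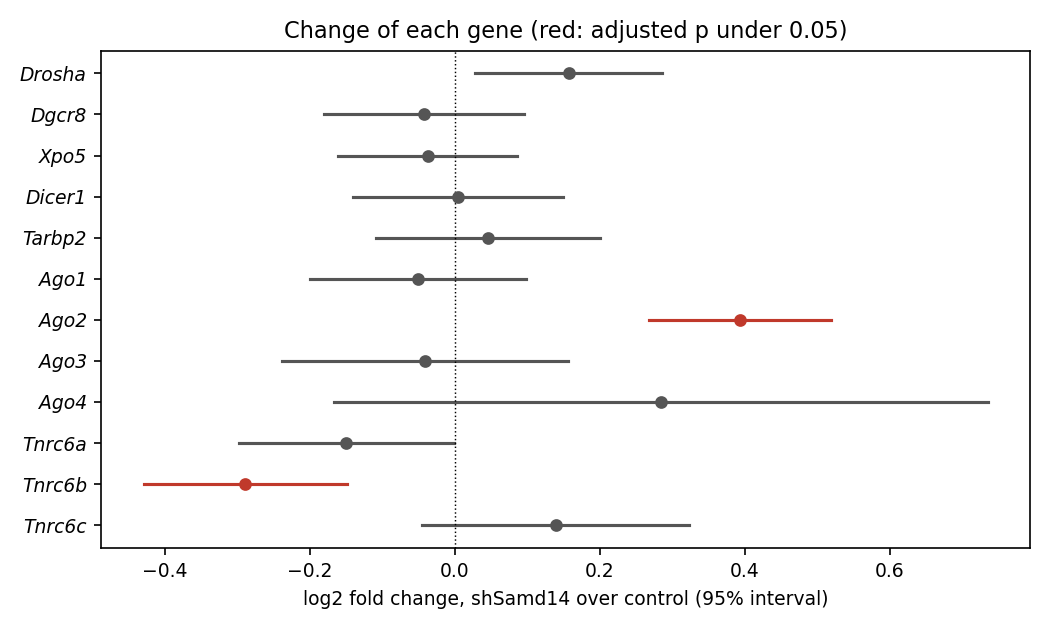
The x axis gives the log2 fold change of shSamd14 over control from edgeR with its 95% interval, for the 10 machinery genes and for Ago4 and Tnrc6c; red marks an adjusted p under 0.05. Ago2 at 0.39 and Tnrc6b at -0.29 are the red points, and the interval of Ago4, from -0.17 to 0.74, is the widest.

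Ago2 (ENSMUSG00000036698, chromosome 15, 73095844 to 73184935, minus strand) had 34.4, 35.2 and 36.1 TPM in shSamd14 libraries and 28.6, 26.4 and 24.9 TPM in control libraries. The lowest shSamd14 library lay well above the highest control library, and the 3 shSamd14 values were close together. In CPM the values were 295, 291 and 291 in shSamd14 and 231, 225 and 212 in control, with means of 292 ± 1.99 and 223 ± 9.91 (SD, n = 3 each). The log2 fold change was 0.39 (SE 0.06, interval 0.27 to 0.52), a 1.31-fold rise (edgeR, adjusted p = 0.00227), and its p ranked 47 among all tested genes. The call held with each library left out in turn, with log2 fold changes of 0.35 to 0.42 and adjusted p from 0.00486 to 0.0223 in the same edgeR test. It rests on 4787 to 7853 estimated counts per library. Ago2 shares 219 exon bases with Chrac1 on the opposite strand, and Chrac1 had 24.0 CPM in shSamd14 and 22.9 CPM in control (a log2 fold change of 0.067, adjusted p = 0.757 in edgeR).

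The remaining Argonautes did not pass. Ago1, Ago3 and Ago4 lie side by side on the minus strand of chromosome 4, Ago3 at 126331704 to 126429556, Ago1 at 126435012 to 126468583 and Ago4 at 126489541 to 126533472. Ago1 had 18.6, 18.8 and 20.8 TPM in shSamd14 and 21.8, 20.8 and 17.7 TPM in control libraries, 82.1 ± 2.54 and 85.1 ± 7.37 CPM, a log2 fold change of -0.051 (interval -0.20 to 0.098, adjusted p = 0.785 in edgeR). Its 2 groups overlapped. Ago3 had 4.08, 4.17 and 4.87 TPM in shSamd14 and 4.64, 4.35 and 3.55 TPM in control libraries, 35.1 ± 0.959 and 36.1 ± 5.05 CPM. Its log2 fold change was -0.041 on counts (interval -0.24 to 0.16, adjusted p = 0.880 in edgeR), but 0.055 once its effective length, 12520 to 14374 bases between libraries, was taken into account, so it has no settled direction. Ago4, the gene of this family with the lowest level, had 0.52, 0.75 and 0.96 TPM in shSamd14 and 0.62, 0.55 and 0.64 TPM in control libraries, and a log2 fold change of 0.28 with an interval from -0.17 to 0.74. The Piwi genes of the germ line branch were at or near the floor, with Piwil1 at 0 counts in all libraries, which allows up to 0.113 to 0.146 CPM for counting error only (3 counts per library), and Piwil2 at 9 to 19 counts in shSamd14 and 8 to 18 in control.

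Within each library, Ago2 made up 59.7%, 59.8% and 57.5% of the summed Argonaute TPM in shSamd14 and 51.4%, 50.7% and 53.2% in control, means of 59.0% ± 1.27 and 51.8% ± 1.30 (SD, n = 3 each). The groups did not overlap, with a difference of 7.22 percentage points, and the exact two-sided permutation test gave p = 0.1, the smallest that 3 against 3 libraries allow. The share of Ago1 was 32.3%, 31.9% and 33.2% in shSamd14 and 39.1%, 39.9% and 37.8% in control. Ago3 held 7.08% to 7.77% in shSamd14 and 7.60% to 8.36% in control, and Ago4 between 0.902% and 1.53% in shSamd14 and 1.06% and 1.37% in control. The summed Argonaute TPM was 57.7, 58.9 and 62.7 in shSamd14 and 55.7, 52.0 and 46.7 in control libraries. Without Ago2 the sum was 23.2, 23.7 and 26.6 TPM in shSamd14 and 27.1, 25.7 and 21.9 TPM in control, and the groups overlapped. The TPM ratio of Ago2 to Dicer1 was 1.39 to 1.60 in shSamd14 and 1.08 to 1.15 in control.

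**Figure D3:**
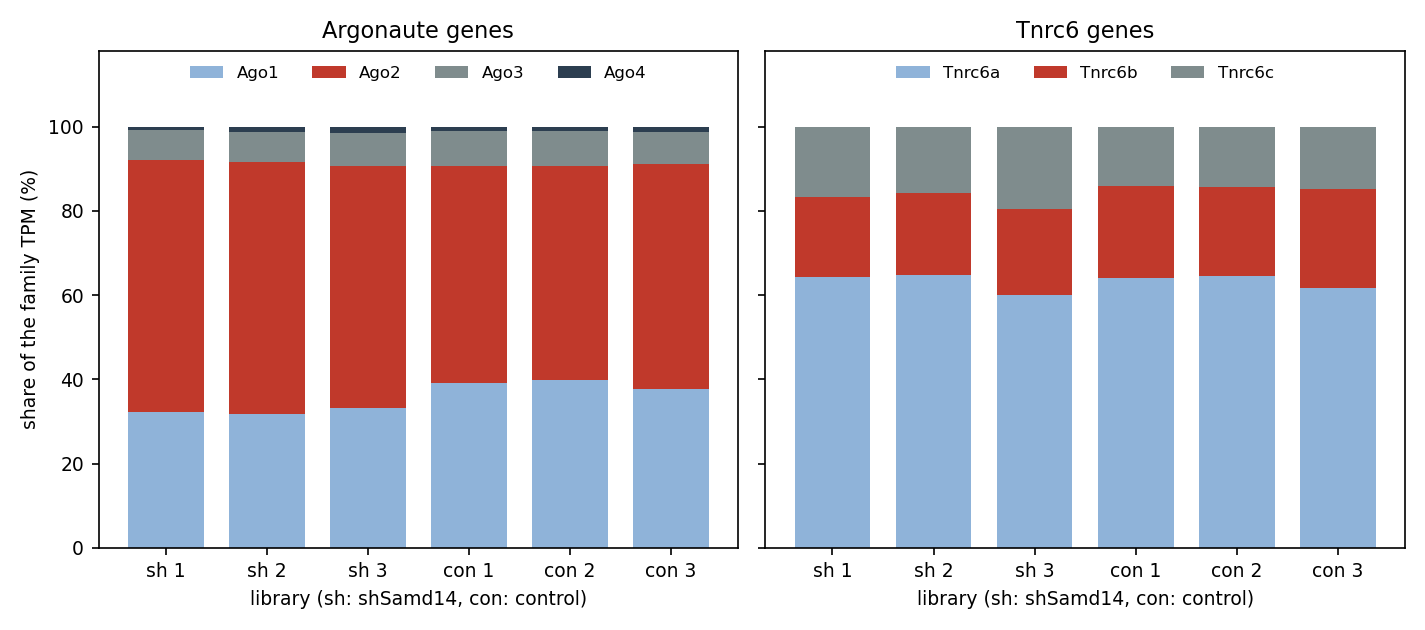
Stacked bars give, for each of the 3 shSamd14 (sh) and 3 control (con) libraries, the percent share of each gene in the summed TPM of the Argonaute genes (left) and of the Tnrc6 genes (right). The Ago2 part is taller in every shSamd14 library (57.5% to 59.8%) than in any control library (50.7% to 53.2%).

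Tnrc6b (ENSMUSG00000047888, chromosome 15, 80711313 to 80941085, plus strand), a scaffold that joins Argonaute to the deadenylases, had 10.2, 10.9 and 12.4 TPM in shSamd14 libraries and 14.7, 12.9 and 12.9 TPM in control libraries. The groups did not overlap, although the highest shSamd14 library came close to the lowest control library. In CPM it had 110, 114 and 126 in shSamd14 and 150, 139 and 139 in control, means of 117 ± 8.30 and 143 ± 6.36 (SD, n = 3 each). The log2 fold change was -0.29 (SE 0.07, interval -0.43 to -0.15), 0.819 of the control level, which passed in edgeR (adjusted p = 0.0283). This call depended on single libraries. It was lost without shSamd14 replicate 1 (adjusted p = 0.104 in edgeR, log2 fold change -0.26), without shSamd14 replicate 2 (0.140, -0.27), without control replicate 1 (0.135, -0.26) and without control replicate 2 (0.05001, -0.31), and also with limma on log2(TPM + 1) (adjusted p = 0.256).

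Tnrc6a and Tnrc6c, its relatives, did not pass. Tnrc6a (chromosome 7, 123123885 to 123195296, plus strand) had 34.5, 35.9 and 36.0 TPM in shSamd14 and 43.5, 39.6 and 34.2 TPM in control libraries, 181 ± 2.26 and 201 ± 19.3 CPM. Control replicate 3 lay below all shSamd14 libraries in TPM, and the log2 fold change was -0.15 (interval -0.30 to -0.00099, adjusted p = 0.329 in edgeR). Tnrc6c (chromosome 11, 117654289 to 117763439, plus strand) had 9.02, 8.73 and 11.7 TPM in shSamd14 and 9.64, 8.80 and 8.27 TPM in control libraries, with a log2 fold change of 0.14 (interval -0.044 to 0.32, adjusted p = 0.492 in edgeR). The share of Tnrc6b in the summed Tnrc6 TPM was 19.0%, 19.6% and 20.56% in shSamd14 and 21.6%, 21.0% and 23.3% in control, a difference of -2.30 percentage points, with p = 0.1 in the exact two-sided permutation test, again the smallest possible. Tnrc6a held 59.9% to 64.7% in shSamd14 and 61.7% to 64.6% in control, so it was the main Tnrc6 transcript in every library. The share of Tnrc6c moved more than that of Tnrc6b and the other way, 16.8%, 15.7% and 19.5% in shSamd14 and 14.2%, 14.4% and 14.9% in control, a difference of 2.85 percentage points without overlap. Over Tnrc6a and Tnrc6b alone the Tnrc6b share differed by -1.88 percentage points, and the groups overlapped (exact permutation p = 0.3).

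Argonautes find targets through short words, mostly in the 3′ untranslated region (UTR). The annotated 3′ UTRs of Ago2, Ago3 and Tnrc6b were among the longest of the searched genes, 11064, 12742 and 11609 bases (median of 11812 searched genes, 1128 bases). Which 3′ ends these cells use was not examined, so a site may lie outside the transcript that is present. Among 15640 words of 7 bases, sense strand only, CTGATTA went most strongly with a higher and AAGTGTA with a lower level in shSamd14, once UTR length and base composition were fitted. These words were found on these same data, so the figures that follow are descriptions. CTGATTA occurred in 7.14% of searched genes and in 88 of the 167 genes that rose. AAGTGTA occurred in 11.2% of searched genes and in 66 of the 156 searched genes that fell. Ago2 held 1 CTGATTA site, starting 10942 bases after its stop codon, and no AAGTGTA. Tnrc6b held 2 AAGTGTA sites and no CTGATTA. Ago3, which had no settled direction, held 2 of each, and none of Drosha, Dgcr8, Xpo5, Dicer1, Tarbp2, Ago1 and Tnrc6a held either word. The sites are printed for Ago2 and Tnrc6b, the called genes, and for Ago3, with the word in capitals and 10 bases on each side, from GENCODE M21 transcripts (GRCm38).
Ago2, chr15:73095950-73095976, minus strand: tgctgtaaacCTGATTAagatatgatg
Ago3, chr4:126341554-126341580, minus strand: tgttccctttCTGATTAaaatttttag
Ago3, chr4:126338356-126338382, minus strand: agtatttccgCTGATTAaaactgacct
Ago3, chr4:126340417-126340443, minus strand: tggccagatgAAGTGTActtcacccat
Ago3, chr4:126337299-126337325, minus strand: ctgtgcagggAAGTGTAggtcatctat
Tnrc6b, chr15:80936710-80936736, plus strand: gaatctctttAAGTGTAgtacttctga
Tnrc6b, chr15:80939573-80939599, plus strand: ccagtgaccaAAGTGTAtgcagtggtc
All 3 CTGATTA sites run on into TGATTAA, the word with the second strongest tie to a higher level. Drosha and Dicer1, which did not pass the test, also held 1 TGATTAA site each. Tob1 and Lin28b, pathway genes described below that fell, held no AAGTGTA. Such long UTRs hold these words often: of the 34 searched genes with a 3′ UTR of 10000 bases or more, 18 held CTGATTA and 25 held AAGTGTA. Among the 448 searched genes with a 3′ UTR of 5000 bases or more, the median log2 fold change was -0.0091 with CTGATTA and -0.054 without. For AAGTGTA it was -0.082 with the word and -0.0070 without. The part of these words in the change of Ago2 or Tnrc6b was not tested.

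Around these 10 genes, 79 of 83 other genes of the pathway were tested, of which 2 fell and none rose, 2.53% beside 2.58% of all tested genes. Their median log2 fold change was -0.012. In the nuclear list of 15 genes (Microprocessor helpers, cap binding, RNA editing, Ran and other nuclear factors) none passed; Hnrnpa1, which binds some microRNA precursors, had the smallest p, with 1527 ± 106 CPM in shSamd14 and 1675 ± 142 CPM in control (adjusted p = 0.474 in edgeR). Hnrnpa2b1 had the highest level of that list, 1565 to 1676 TPM in shSamd14 and 1512 to 1631 TPM in control. Adarb1, an editing enzyme named after its value was seen, had the largest log2 fold change of the list, 0.41, but at 0.27 to 0.58 TPM and with an adjusted p of 0.496 in edgeR.

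In the loading list, 20 of 22 genes were tested and none passed. Mov10, an RNA helicase found with Argonaute, had 8.16, 6.36 and 7.80 TPM in shSamd14 and 9.48, 10.2 and 9.53 TPM in control libraries. The groups did not overlap, and its log2 fold change of -0.40 (SE 0.10) missed the threshold (adjusted p = 0.0623 in edgeR). It passed without shSamd14 replicate 1 (0.0252, log2 fold change -0.50), but not with any other library left out (adjusted p from 0.106 to 0.228 in edgeR). Hspa8, the constitutive Hsc70 chaperone that helps to load Argonaute, had 3368 to 3471 TPM in shSamd14 and 3136 to 3382 TPM in control, the highest level of the list.

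Among 27 effectors of silencing (the CCR4-NOT and PAN2-PAN3 deadenylases, decapping factors, the exonuclease Xrn1 and poly(A)-binding proteins), Tob1 fell and none rose. Tob1, an antiproliferative protein that binds the CCR4-NOT deadenylase, had 17.5, 20.2 and 17.5 TPM in shSamd14 and 29.0, 25.8 and 26.8 TPM in control libraries, well apart. Its log2 fold change was -0.57 (SE 0.08; edgeR, adjusted p = 0.00126), and it passed with each library left out. The remaining 26, Pabpc1 among them with a log2 fold change of -0.010, did not pass, and the median over the list was -0.012.

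Of 14 genes of small RNA turnover, Lin28b fell and none rose. Lin28b, the RNA-binding protein that blocks maturation of let-7, had 26.2, 29.8 and 26.8 TPM in shSamd14 and 36.7, 34.7 and 30.1 TPM in control libraries, so that the closest libraries of the 2 groups nearly met. Its log2 fold change was -0.30 (SE 0.07; edgeR, adjusted p = 0.0369). The call was lost without shSamd14 replicate 1 (adjusted p = 0.0890 in edgeR), shSamd14 replicate 2 (0.0643), shSamd14 replicate 3 (0.110), control replicate 1 (0.164) and control replicate 2 (0.119), with log2 fold changes of -0.36 to -0.27 there. It was also lost with effective-length offsets (0.0508) and with limma on log2(TPM + 1) (0.144) and log2(TPM + 0.1) (0.146). The list's median was -0.061, with 11 of 14 values negative, beside 6127 of 12670 for all tested genes. Of all 79 other pathway genes tested, 50 had negative values, among them 18 of the 27 effectors of silencing. Xrn2, a nuclear exonuclease with the highest level of the list, had 98.3 to 104 TPM in shSamd14 and 95.4 to 103 TPM in control.

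**Figure D4:**
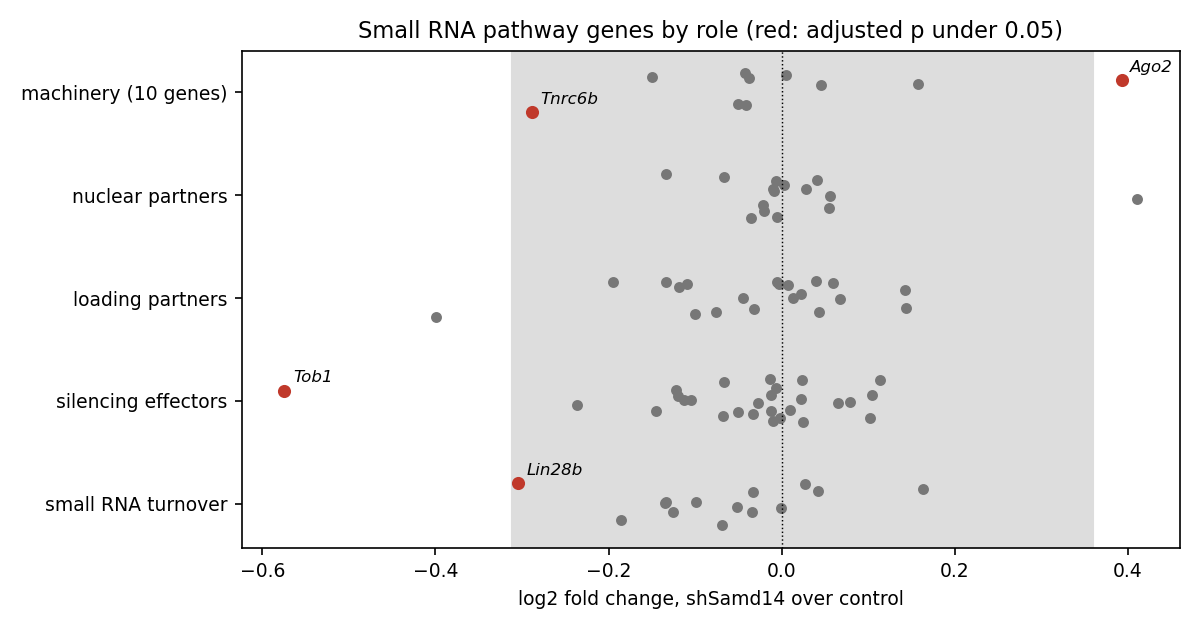
Each point is a tested gene, placed by its log2 fold change of shSamd14 over control in the row of its role (height within a row is random), with genes at an adjusted p under 0.05 in red and named; the grey band spans the 5th to 95th percentile of all tested genes, -0.31 to 0.36. Ago2 lies to the right of the band, Tob1 to the left, and Tnrc6b and Lin28b just inside its left edge.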

How the data were processed

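The submitters' processing notes name RSEM 1.2.15, CASAVA 1.8.2 and Bowtie 1.0.1 with build mm10, without roles; annotation release, trimming and strand setting: not given in the sources used here. Each library has its own RSEM gene table, in which the authors deposited an expected count, TPM, FPKM and length for each gene, per the file headers. An expected count shares a read between the genes it maps to, so near-identical copies are less certain. TPM was used for levels and shares as deposited, and FPKM, also deposited by the authors, was not used. Length and effective length were equal within 0.05 bases in all tables. Of 24376 IDs, 23580 had a symbol in GENCODE M21 (GRCm38), which also gave coordinates.

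After rounding, edgeR 4.0.16 (R 4.3.3) was run on the expected counts (filterByExpr with minimum count 10, TMM factors of 0.986 to 1.02, robust quasi-likelihood test, group as the only term). The SE was derived from the F statistic (size of the log2 fold change over root F). CPM are TMM-scaled. A depth of 20584169 to 26462797 counts puts 3 counts at 0.113 to 0.146 CPM. No pair within a group was a duplicate (chi-square of 5.73 to 12.2 for each gene compared). The code was tested on simulated counts.

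The 10 genes and all lists were chosen with earlier results of these data known. Named are the 10 genes, Samd14, Ago4, Tnrc6c and, in each other list, every gene past the threshold (or the smallest p) and the gene with the highest TPM. The 3′ UTR searched for words was the longest (at least 50 bases) among a gene's transcripts listed in the tables. Each word present in at least 100 genes was scored by regressing the signed edgeR statistic on its presence with UTR length and GC content. Alternatives were RLE factors, 2 other count filters, effective-length offsets, a replicate block, DESeq2 1.42.0, limma 3.58.1 on log2(TPM + 1) or log2(TPM + 0.1) of genes at 1 TPM in 3 libraries, and leaving out each library.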

Additional observations from a re-analysis of the deposited data

How the results depend on the processing

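Ago2 was called higher, Samd14 lower and Tob1 lower under all 14 alternatives. The count of 327 changed genes became 682 with the replicate block, 488 with no count filter and 420 with DESeq2. It became 168 with limma on log2(TPM + 1) and 170 on log2(TPM + 0.1), and 128 to 283 with 1 library left out (128 without shSamd14 replicate 2, 153 without control replicate 1). The 2 called machinery genes became 1 with limma at either pseudocount and 1 to 2 with 1 library left out, Tnrc6b being the gene lost. The 2 other pathway genes became 1 with effective-length offsets, 1 with limma at either pseudocount and 1 to 2 with 1 library left out, Lin28b being the gene lost. They became 3 with no count filter, the replicate block and DESeq2, Mov10 being the gene added. Without shSamd14 replicate 1, the 2 called were Mov10 and Tob1. The cause of these shifts was not tested. The replicate numbers were not taken as pairs: deviations of same-numbered libraries correlated at -0.092, 0.22 and 0.38, and shSamd14 replicate 1 correlated best with control replicate 2 (0.26). With the replicate block Ago2, Tnrc6b, Tob1 and Lin28b kept their calls and Mov10 passed (adjusted p = 0.0147 in edgeR). Mov10 also passed with no count filter (0.0151) and DESeq2 (0.0439). It did not pass with effective-length offsets (adjusted p = 0.0860 in edgeR) or with limma on log2(TPM + 1) (adjusted p = 0.145).

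Signs turned only for genes that never passed. Ago3 had a log2 fold change of 0.055 with effective-length offsets, 0.056 and 0.068 with limma at pseudocounts 1 and 0.1, and -0.16 to 0.017 with 1 library left out; Dicer1 had -0.054 to 0.049 and Tarbp2 -0.025 to 0.10 there. Hnrnpa2b1 had 0.028 with effective-length offsets, 0.039 and 0.039 with limma, and -0.061 to 0.025 with 1 library left out. Pabpc1 had 0.0025 and 0.0025 with limma and -0.030 to 0.012 with 1 library left out. Xrn2, at -0.00042 in the main test, had 0.0025 with no count filter, 0.0011 with 1 CPM in 3 libraries, 0.00019 with effective-length offsets, 0.011 and 0.011 with limma, and -0.026 to 0.023 with 1 library left out. The Ago2 share differed by 6.53 points in expected counts and 7.34 points over Ago1 to Ago3 alone, against 7.22 points in TPM. Depth limited Ago4: at 53 to 99 counts in shSamd14 and 49 to 62 in control, its interval (-0.17 to 0.74) includes the change seen in Ago2.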

Other observations

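Of 7 microRNA host transcripts listed by name in the tables, 2 had enough counts to be tested, and neither passed the test; these transcripts were picked by name after the tables were seen. Mir142hg, the host of the blood cell microRNA miR-142, had 53.3, 53.8 and 57.6 TPM in shSamd14 libraries and 54.7, 45.8 and 49.3 TPM in control libraries, a log2 fold change of 0.12 (95% interval -0.14 to 0.39, adjusted p = 0.692 in edgeR). Mir17hg, the host of the miR-17-92 cluster, had 10.7, 11.6 and 9.22 TPM in shSamd14 and 11.5, 10.4 and 8.02 TPM in control libraries, a log2 fold change of 0.070 (95% interval -0.21 to 0.35, adjusted p = 0.848 in edgeR). Mir155hg had 2, 0 and 3 counts in shSamd14 and 0 counts in each control library, below what this depth can compare. These transcripts are cut by the Microprocessor, and mature microRNAs were not part of these polyadenylated libraries, so the output of the machinery was not measured here.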
